A study of Arabidopsis thaliana with 12 samples.

Results

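CBL (AT3G57050), the gene of cystathionine beta-lyase, and CYN (AT3G23490), the gene of cyanase, were each read by 1 probe assigned to a single gene, probe 2021 for CBL and probe 896 for CYN. They are 2 of 691 genes with such a probe, in a table of 3439 probes. Both genes were chosen by how their deposited values differed between the atc6 mutant and wild-type plants, so every level and difference of these genes given here is a description and was not tested. RNA came from 12 samples of Arabidopsis thaliana, 6 of atc6, which lacks cytochrome c6, and 6 of wild type (WT). Both genotypes were in the Columbia 0 background and were grown on MS medium, a mineral medium for plant culture. The labels used here give no age, tissue, mutant allele or number of plants per sample, and leave unsaid whether samples came from separate cultures. The spread between samples, which is all that p-values measure here, may therefore be technical.

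Cystathionine beta-lyase works in the plastid, where it splits cystathionine into homocysteine, pyruvate and ammonia. Homocysteine is the direct precursor of methionine, so the enzyme sits on the route that carries sulfur from cysteine into methionine. Cyanase combines cyanate, a toxic ion, with bicarbonate and gives ammonia and carbon dioxide. Both enzymes release ammonia, but they belong to separate pathways. The gene table lists 5 transcripts for CBL and 3 for CYN, and which of them the probes read is not given in the sources used here.

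Values were deposited as linear intensities, with their scaling not given in the sources used here. Sample medians lay between 0.323 and 0.50 in atc6 replicates 3 to 6 and between 0.485 and 0.627 in the WT samples, while atc6 replicates 1 and 2 stood apart at 4.46 and 4.52. The differences between the genotypes are given with and without those 2 samples. Replicates 1 and 2, 3 and 4, and 5 and 6 of a genotype deviated from their genotype mean together (correlations across probes of 0.59 to 0.89 in atc6 and 0.64 to 0.74 in WT) and were averaged as doublets, which left 3 values per genotype and limits the precision throughout. In whole samples, fewer cells of a type and less RNA per cell cannot be told apart.

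CBL stood near the middle of the intensity distribution in atc6 and in its lower part in WT. Its deposited intensities in atc6 replicates 1 to 6 were 4.56, 3.74, 0.572, 0.548, 0.359 and 0.330. In WT replicates 1 to 6 they were 0.362, 0.357, 0.439, 0.352, 0.363 and 0.332. As deposited, atc6 replicates 1 to 4 lay above all WT samples, atc6 replicate 5 lay among them, and atc6 replicate 6 was just below the lowest of them. Replicates 5 and 6 were also the atc6 samples with the lowest medians. Set against the sample's own median, CBL was at 1.02, 0.828, 1.14, 1.10, 1.11 and 1.02 times the median in atc6 replicates 1 to 6. The same multiples were 0.577, 0.573, 0.907, 0.719, 0.691 and 0.640 in WT replicates 1 to 6. On this measure 5 of the 6 atc6 samples were above their sample's median, 0 of the 6 WT samples were, and the groups overlapped only through atc6 replicate 2 and WT replicate 3.

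The rank of CBL among all probes of a sample, which no scaling of a whole sample can change, gave the same overlap between the groups. The percentile of CBL was 50.7, 43.8, 56.0, 53.9, 54.6 and 50.8 in atc6 replicates 1 to 6, against 28.8, 28.2, 45.5, 36.5, 34.3 and 31.1 in WT replicates 1 to 6. WT replicate 3 ranked above atc6 replicate 2, and all other WT samples ranked below all atc6 samples.

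**Figure D1:**
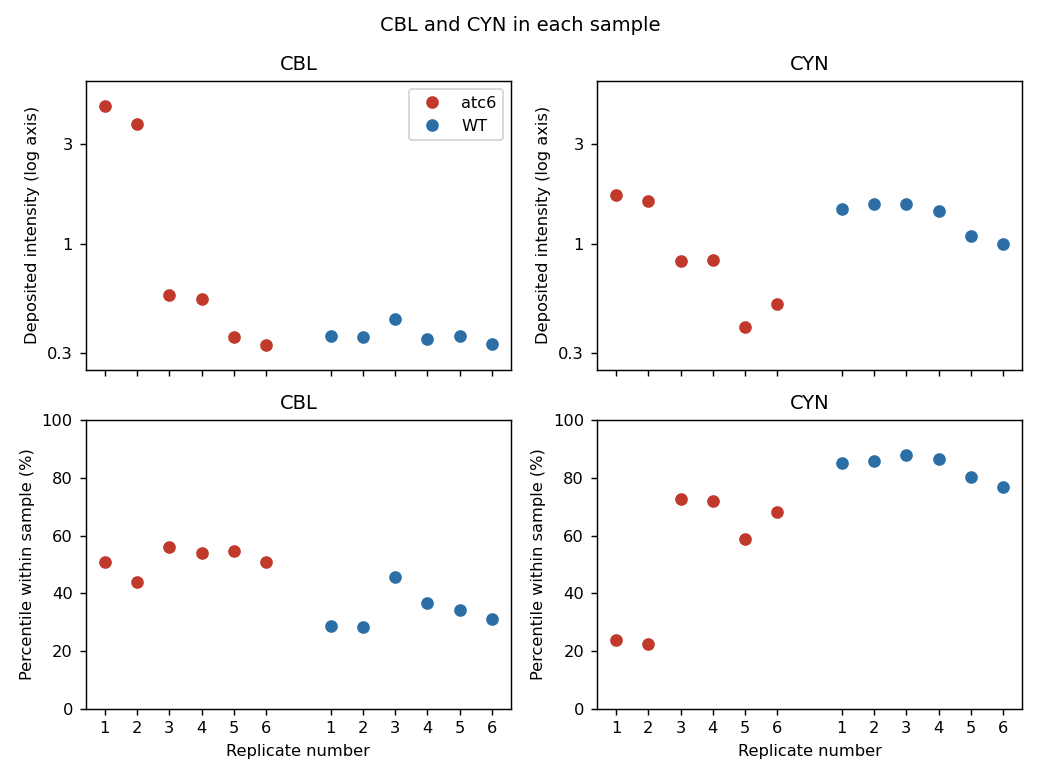
Deposited intensity (top, log axis) and percentile within the sample (bottom, %) of CBL and CYN in each of the 6 atc6 and 6 WT samples, by replicate number, 1 point per sample. CBL ranked at 43.8 to 56.0% in atc6 and 28.2 to 45.5% in WT; CYN ranked at 22.5 to 72.5% in atc6 and 76.8 to 88.0% in WT, with atc6 replicates 1 and 2 lowest in rank although highest in deposited intensity.

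CYN stood in the upper part of the intensity distribution in WT and ranked lower in all atc6 samples. Its deposited intensities in atc6 replicates 1 to 6 were 1.71, 1.60, 0.832, 0.833, 0.402 and 0.518. In WT replicates 1 to 6 they were 1.46, 1.54, 1.56, 1.44, 1.09 and 0.999. As deposited, atc6 replicates 1 and 2 held the highest values of all samples, whereas atc6 replicates 3 to 6 were below every WT sample. The percentile of CYN within its sample was 23.8, 22.5, 72.5, 72.0, 58.8 and 68.2 in atc6 replicates 1 to 6, against 85.2, 86.0, 88.0, 86.5, 80.2 and 76.8 in WT replicates 1 to 6. No atc6 sample reached the lowest WT percentile, and atc6 replicates 1 and 2 lay far below the other atc6 samples. For CYN the deposited intensity and the rank thus placed the same 2 atc6 samples at opposite ends.

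For the comparison of atc6 and WT, which asks what the loss of cytochrome c6 does to transcript levels, the samples were quantile-normalized together and expressed as log2(value + pseudocount), with a pseudocount of 0.267. Fold changes on this scale understate those of dim probes such as CBL. The log2 levels of CBL in the doublets of replicates 1 and 2, 3 and 4, and 5 and 6 were 0.42, 0.66 and 0.59 in atc6, against -0.21, 0.23 and -0.05 in WT. All 3 atc6 doublets were above all 3 WT doublets. CBL averaged 0.56 ± 0.12 in atc6 and -0.01 ± 0.22 in WT (SD, n = 3 doublets each), a difference of 0.57 ± 0.22 (SE), or 1.49-fold, with a 95% interval of 0.05 to 1.09. Samples within a doublet differed by up to 0.28 on the log2 scale, and by 0.14 on average. Without atc6 replicates 1 and 2 the difference of CBL was 0.51 ± 0.22 (SE), and 0.64 when the normalized values of the remaining samples were kept. On the values as deposited it was 1.13 ± 0.89, where the median over all probes also shifted by 0.66, so that CBL stood 0.47 above that median.

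The log2 levels of CYN in the same doublets were -0.44, 1.22 and 0.94 in atc6, against 1.69, 1.77 and 1.42 in WT. All 3 atc6 doublets were below all 3 WT doublets, and the doublet of replicates 1 and 2 differed by -1.52 from the mean of the other atc6 doublets. CYN averaged 0.57 ± 0.89 in atc6 and 1.63 ± 0.18 in WT (SD, n = 3 doublets each), a difference of -1.05 ± 0.42 (SE), with a 95% interval of -2.03 to -0.07. The WT level was thus 2.08-fold the atc6 level on this scale. Without atc6 replicates 1 and 2 the difference was -0.60 ± 0.23 (SE), and -0.55 when the normalized values of the remaining samples were kept. Its direction was the same, and its size depended on those 2 samples. On the values as deposited the difference was -0.52 ± 0.64, or -1.18 relative to the median shift of all probes.

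**Figure D2:**
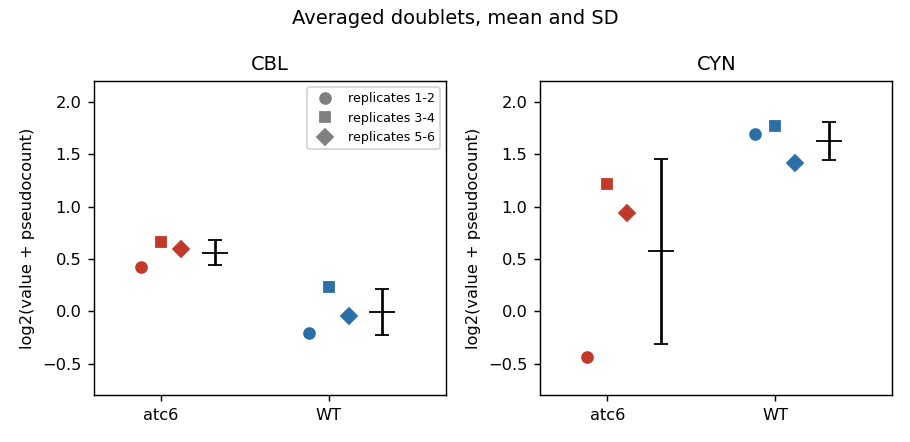
Quantile-normalized log2 level of CBL and CYN in the averaged doublets of atc6 (red) and WT (blue), by replicate numbers, with the mean and SD over 3 doublets as black bars. The atc6 doublets of CBL lie between 0.42 and 0.66 and those of WT between -0.21 and 0.23; for CYN the atc6 doublet of replicates 1 and 2 lies at -0.44, apart from 1.22 and 0.94.

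The members differed in how far the atc6 doublets spread. The SD of CBL over the atc6 doublets exceeded that of 8.14% of the 3329 probes fitted, and that of CYN exceeded 91.5%. In WT the same figures were 43.1% for CBL and 32.3% for CYN. The median SD over all probes was 0.38 in atc6 and 0.25 in WT. Between the atc6 doublets of replicates 3 and 4 and of replicates 5 and 6 alone, CBL differed by 0.07, a larger gap than in 12% of probes, and CYN by 0.28, a larger gap than in 42.0%. The drop of CYN in atc6 replicates 1 and 2 relative to the other atc6 doublets was exceeded by 4.42% of probes, whereas for CBL, which was 0.20 lower there, 32.9% of probes lay lower still. The other scale of these replicates moved with this drop, and its part in the drop was not tested. Between doublets of the same number, atc6 minus WT was 0.63, 0.44 and 0.64 for CBL and -2.13, -0.55 and -0.48 for CYN. CYN was thus lower by about the same amount in the doublets of replicates 3 to 6, and the doublet of replicates 1 and 2 differed from both.

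Of the 3329 probes, 5.8% had all atc6 doublets above all WT doublets and 5.38% had all below. CBL is among the former and CYN among the latter, and both were chosen with this contrast in view. Across all probes the median difference was 0.04, and the central 95% of probes lay between -0.90 and 0.68. Larger positive differences than that of CBL were found for 4.81% of probes, and more negative ones than that of CYN for 1.50%. Without atc6 replicates 1 and 2, with normalized values kept, these shares were 3.09% for CBL and 6.16% for CYN, the median difference over all probes was 0.01, and 10.3% of probes had the remaining atc6 doublets above and 10.1% below all WT doublets. No probe passed limma's test at an adjusted p of 0.05 (0 of 3329, 0%), with 167 of the 3329 at an unadjusted p under 0.05. A threshold of 0.05 passes about that share of probes when no probe differs.

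The ratio of CBL to CYN within a sample does not depend on a factor that multiplies all values of the sample. Because the probes may differ in how brightly they read a transcript, only its change between samples is of use, not its size. The log2 ratio of the deposited values was 1.41, 1.23, -0.54, -0.60, -0.16 and -0.65 in atc6 replicates 1 to 6. In WT replicates 1 to 6 it was -2.02, -2.11, -1.82, -2.03, -1.59 and -1.59. Every atc6 sample was above every WT sample, with atc6 replicates 1 and 2 highest and the other 4 atc6 samples still apart from WT. Averaged by doublets, the log2 ratio was 0.11 ± 1.05 in atc6 and -1.86 ± 0.25 in WT (SD, n = 3 each), a difference of 1.97, or 3.93-fold. Without atc6 replicates 1 and 2 the atc6 mean was -0.49 and the difference 1.37. With all samples and a pseudocount added, the difference was smaller, 1.66 on the deposited values and 1.62 on the quantile-normalized values. Both genes were chosen by their difference between the genotypes and moved in opposite directions. A ratio that separates the genotypes follows largely from that choice and is no test. The ratio describes how unequally CBL and CYN differed between the genotypes in these samples, and does not say which of them changed. An added background would not cancel in the ratio, and its part was not tested.

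**Figure D3:**
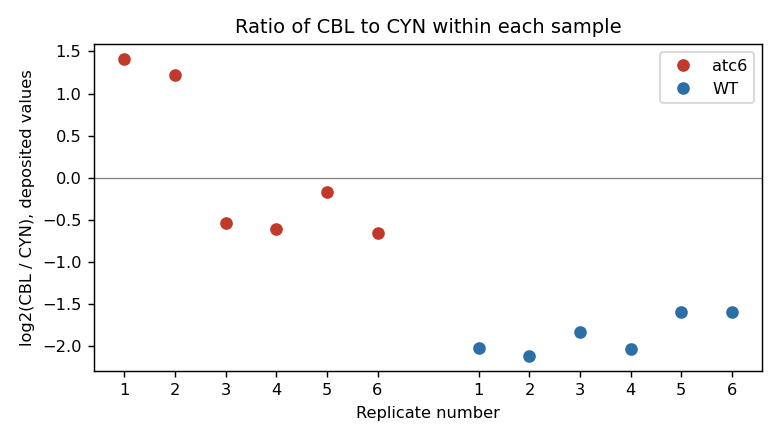
The log2 ratio of the deposited CBL intensity to the deposited CYN intensity in each of the 6 atc6 and 6 WT samples, by replicate number. The atc6 samples lie between -0.65 and 1.41 and the WT samples between -2.11 and -1.59.

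The direction of both differences was the same in each of the settings run, while their sizes moved. Other scalings of the samples with all doublets kept gave 0.41 to 0.49 for CBL and -1.29 to -1.04 for CYN (common median, cyclic loess, and a common median before quantile normalization). The plot of differences by setting shows that the doublet of atc6 replicates 1 and 2 moved CYN most among the doublets, and hardly moved CBL.

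**Figure D4:**
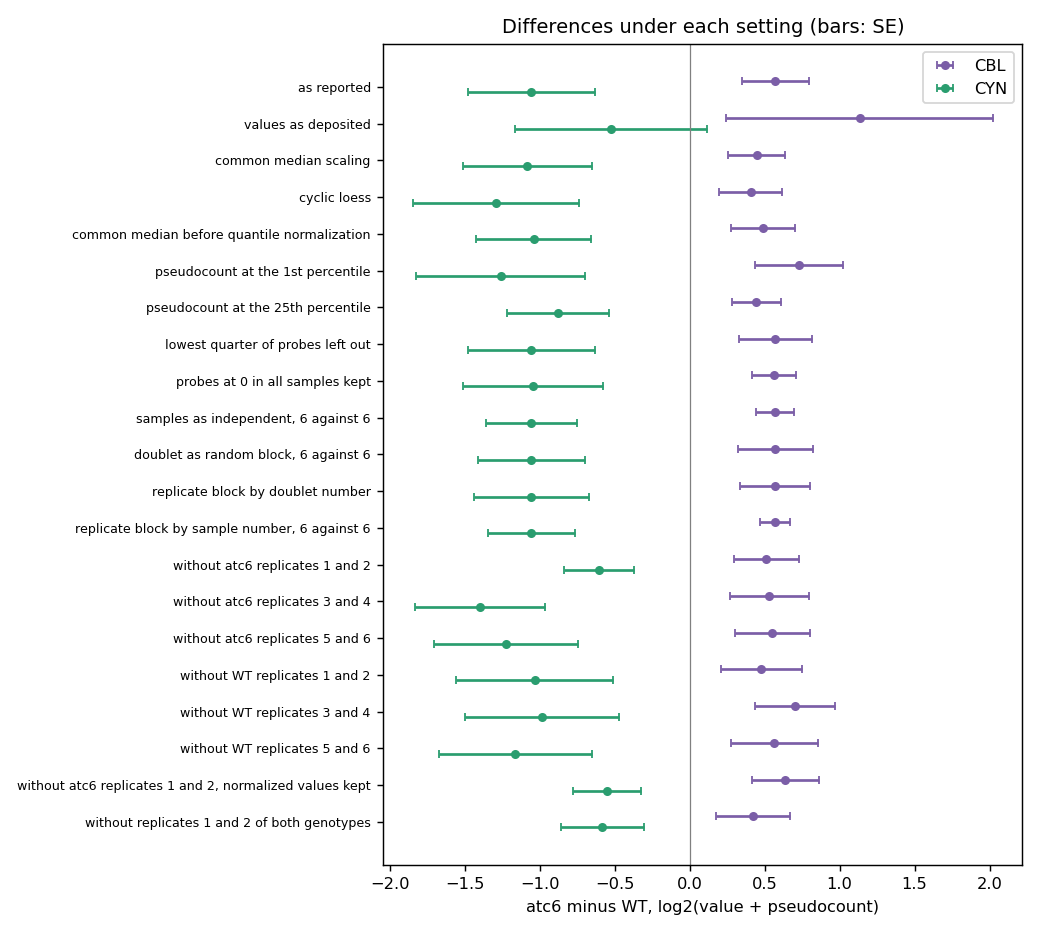
Difference of atc6 minus WT in log2(value + pseudocount) for CBL (purple) and CYN (green) under each setting, with SE bars. CBL lies between 0.41 and 1.13 and CYN between -1.39 and -0.52; the CYN differences nearest 0 are those on the deposited values and those without atc6 replicates 1 and 2.

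Genes of neighbouring pathways were taken from 5 lists of 130 genes in all, drawn up by gene ID for sulfate assimilation and cysteine synthesis, methionine and the aspartate family, nitrogen assimilation, cyanate, cyanide and bicarbonate enzymes, and other amino acid synthesis. Beside CBL and CYN, 4 of these genes had a probe of their own, so the lists hardly cover their pathways. CBL was the single measured gene of 34 in the methionine list, CYN the single one of 11 in the cyanate list, and 0 of the 21 genes of nitrogen assimilation were measured. Differences were positive for 3 of the 4 genes and negative for 1, with a median of 0.13 against 0.04 over all probes. By limma, 0 of the 4 passed over all probes, and 0 were at an unadjusted p under 0.05. Over all 3329 probes these counts were 0 and 167, so 4 genes are too few for their counts to say anything about the pathways.

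APS4 (AT5G43780), which encodes ATP sulfurylase, the enzyme that activates sulfate before it is reduced, averaged 0.11 ± 0.49 in atc6 and 0.06 ± 0.34 in WT (SD, n = 3 doublets each). Its difference was 0.05 ± 0.32 (SE), with limma's adjusted p = 0.973 and a 95% interval of -0.68 to 0.79, and it turned to -0.18 without atc6 replicates 1 and 2 and to -0.15 without WT replicates 5 and 6. AT5G10920, from the list of other amino acid synthesis, averaged 2.06 ± 0.71 in atc6 and 1.53 ± 0.50 in WT. Its difference of 0.53 ± 0.41 (SE) was close in size to that of CBL, and limma's adjusted p was 0.848. The difference was 0.14 without atc6 replicates 1 and 2 and 0.25 without WT replicates 5 and 6. Its doublets overlapped between the genotypes. Most probes overlapped, since only 5.8% had all atc6 doublets above and 5.38% all below those of WT. CBL was chosen by its difference, so its lack of overlap does not set it apart from this gene. From the same list, AT3G58610 differed by 0.21 ± 0.28 (adjusted p = 0.905) and AT3G23940 by -0.31 ± 0.25 (adjusted p = 0.856), both with overlapping doublets. Without atc6 replicates 1 and 2 they were at 0.057 ± 0.25 and -0.59 ± 0.30 (SE), and without WT replicates 5 and 6 at 0.020 and -0.13. The 95% intervals reached up to 0.79 for APS4, 0.87 for AT3G58610 and 1.48 for AT5G10920, and so include the size of the CBL difference, while that of AT3G23940 ran from -0.90 to 0.28. In atc6 replicates 1 and 2 all 4 were higher than in the mean of the other atc6 doublets, by 0.35 to 1.17, where CYN differed by -1.52 and CBL by -0.20. The share of all probes with a lower value of this gap was 65.7% for AT3G23940, 69.3% for AT3G58610, 88.7% for APS4 and 96.1% for AT5G10920. For the first 2 of these genes the rise was thus not unusual. The part of the other scale of these replicates was not tested.

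The genes whose levels followed CBL most closely over the 6 doublets of both genotypes, by Pearson's r among 665 other single-gene probes, were AT4G15840 (r = 0.93), PRK (r = 0.88) and GLDH (r = 0.85). PRK encodes phosphoribulokinase of the Calvin-Benson cycle, and GLDH the dehydrogenase that completes ascorbate synthesis. The level of PRK was 1.80, 1.80 and 2.43 in the atc6 doublets and 0.12, 0.60 and 0.95 in the WT doublets, so that its atc6 doublets were all higher, as those of CBL were. GLDH was at 0.85, 1.06 and 1.29 in the atc6 doublets and 0.54, 1.01 and 0.33 in the WT doublets, which overlapped.

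For CYN the closest were AT2G27290 and AT5G38310 (both r = 0.98) and AT4G35660 (r = 0.98). AT2G27290 was at 1.60, 4.66 and 3.75 in the atc6 doublets and 5.91, 5.40 and 5.11 in the WT doublets. AT4G35660 was at 1.28, 3.89 and 2.99 in the atc6 doublets and 3.93, 4.16 and 3.68 in the WT doublets. Both shared with CYN the low value in atc6 replicates 1 and 2. So did AT5G38310, at 0.39 there against 0.94 and 0.95 in the other atc6 doublets. Of the 6 doublets, this one lies furthest from the mean of CYN and so weighs most in r. Genes picked by r with CYN are therefore largely bound to share its low value there, which is no separate trait of theirs. An r above 0.9 with CYN was reached by 34 of the 665 probes (5.11%), and with CBL by 1 (0.15%). These 6 points share their samples, the normalization and the difference in scale of atc6 replicates 1 and 2. They also span both genotypes, so a gene with a like step between the genotypes has a high r. CBL and CYN were chosen by that step. Between CBL and CYN r was -0.46 over the same 6 doublets. Over the 5 doublets without atc6 replicates 1 and 2, r with CBL was 0.92 for AT4G15840, 0.88 for PRK and 0.87 for GLDH. With CYN it was 0.94 for AT2G27290, 0.95 for AT5G38310 and 0.86 for AT4G35660, and between CBL and CYN it was -0.73. Over these 5 doublets an r above 0.9 was reached by 23 probes (3.46%) with CYN and by 5 (0.75%) with CBL.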

How the data were processed

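RNA of 12 samples was measured on an array. The authors deposited intensities on a linear scale, a unit read from the values because the labels state none; for the scanner, background correction and scaling, the sources used here give nothing. Gene names come from an annotation of the platform that may be outdated. Of its 692 single-gene probes, 690 matched the TAIR10.1 gene table by gene ID. Of the other probes, 870 have several genes and 1877 are not listed.

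The 110 probes listed at 0 in every sample were dropped. The samples were quantile-normalized together, so that an overall shift between the genotypes is lost. The 10th percentile of the positive normalized values was added before log2. Doublets were averaged. Differences were fitted over 3329 probes with limma 3.58.1 in R 4.3.3 (lmFit and eBayes, two-sided, Benjamini-Hochberg adjustment, threshold 0.05), without a block. Deviations of same-numbered samples correlated between the genotypes at 0.11 to 0.30 (doublets 0.07 to 0.24). For the doublets in order of number these correlations were 0.068, 0.14 and 0.24. The highest correlations with another number were 0.064, 0.064 and -0.050. For doublet number 1 the values thus hardly show pairing, and the numbers were taken only as a possible pairing of the samples. The main SEs and intervals come from the fit without a block, and a fit with a block was run beside it.

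The members and lists were chosen with earlier results of these data known. The text names the members, the list genes with a probe, and the 3 most alike genes of each member. No sequence of the genes or probes was used here.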

Additional observations from a re-analysis of the deposited data

Results flagged for a closer look

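In WT replicate 3 the deposited intensity of CBL, 0.439, stood apart from the other WT samples, which lay between 0.332 and 0.363. The gap was 0.717 of the group's range, above Dixon's limit of 0.625 for 6 samples. The limit serves only to point out the sample: it takes the 6 samples as independent, which the doublets are not, and it tests no level or difference of CBL. Among the 26 groups of values checked it was the single one past the limit, and chance flags about 1 in 20 groups.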

How the results depend on the processing

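The sign of the CBL and CYN differences and of the change in their ratio was kept in all settings run. CBL moved by more than the spread between doublets only on the values as deposited (1.13). Leaving out single samples gave 0.51 to 0.62 for CBL, -1.10 to -0.995 for CYN and 1.89 to 2.06 for the ratio. Leaving out doublets gave 0.48 to 0.70, -1.39 to -0.60 and 1.37 to 2.32. The alternatives for the ratio were chosen after seeing the data. With a replicate block by doublet number the differences were 0.57 ± 0.23 (SE) for CBL and -1.05 ± 0.38 for CYN, and it changed no other call. The count of probes passing limma was 0, 55 with the sample number as a replicate block and 99 with the samples as independent, both of which treat repeats as independent, and 1 with doublets as a random block, with the pseudocount at the 1st percentile and with an intensity trend and robust prior. It was 0 to 1 with single samples left out and 0 to 2 with doublets left out (2 without atc6 replicates 3 and 4, 1 without WT replicates 3 and 4, 1 without WT replicate 3). The pathway genes passing stayed at 0. APS4 turned to -0.18 without atc6 replicates 1 and 2, -0.22 with normalized values kept, -0.15 without WT replicates 5 and 6 and -0.10 without replicates 1 and 2 of both genotypes, and AT3G23940 to 0.28 on the values as deposited, and the cause was not tested. Each member had 1 single-gene probe, so a mean over probes could not be run.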
